A study of Mus musculus with 8 samples.

Results

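Most of the 60 genes described here encode proteins of the spliceosome or splicing factors of the SR family. Some Lsm genes among them have roles outside the spliceosome, and all 60 are called splicing genes below. Membership went by gene symbol alone: symbols that begin with Snrp (Snrpn left out), Lsm, Sf3a, Sf3b, Prpf or Srsf, together with U2af1 and U2af2. They are 60 of the 24921 genes in the deposited table. One of them, Lsmem1, matched by its letters alone and encodes a membrane protein that is no part of the Lsm family. The other 59 fell into 7 groups by role.

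Expression was measured in C57BL/6 mouse embryos with Smart-seq, a method for little RNA that makes and amplifies cDNA over the whole transcript. The 8 libraries formed 4 groups of 2, labelled CX45, CX22, 8C and 2C. 8C and 2C were taken to mean the 8-cell and 2-cell stages; CX45 and CX22 have no spelled-out meaning in the labels. The series title speaks of RNA polymerase I transcription and chromatin architecture, and the labels call no group a control. For every group the labels gave the same strain, total RNA and embryo as the source, and no age, dose or number of embryos. Levels are FPKM, which divide a transcript's fragments by its length and by the size of the library, so they show a share of the RNA and not an amount per embryo. In such bulk samples, fewer cells that express a gene and less of its RNA per cell cannot be told apart.

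Splicing removes introns from pre-mRNA. It is carried out by the spliceosome, which is built on each intron from small nuclear ribonucleoproteins (snRNPs), each a small nuclear RNA with its proteins. A ring of Sm proteins sits on the U1, U2, U4 and U5 RNAs, and a related ring of Lsm proteins sits on U6. The SF3A, SF3B and U2AF proteins find the branch point and the 3′ splice site, Prpf proteins hold the tri-snRNP and the catalytic core together, and SR proteins bind exons and recruit the machinery. In the mouse, the fertilised egg relies at first on RNA and protein stored in the oocyte, and the embryo's own genome is switched on around the 2-cell stage.

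The markers fitted the labelled stages. The summed level of 15 maternal oocyte transcripts was 117 and 132 FPKM in 8C against 35150 and 37690 FPKM in 2C, and that of 13 genes of the 8-cell stage and later was 1371 and 1694 FPKM in 8C against 93.7 and 96 FPKM in 2C. Genes of the 2-cell stage summed to 81 and 851 FPKM in CX45, where the libraries stood far apart, to 698 and 557 FPKM in CX22, to 12.5 and 15.7 FPKM in 8C and to 473 and 487 FPKM in 2C. By their sums, the CX22 libraries stood near 2C on the other 2 lists (43670 and 38130 FPKM, and 113 and 94 FPKM). The CX45 libraries stood nearer to 8C (881 and 1206 FPKM, and 959 and 1232 FPKM). A few genes make up most of these sums, among them Omt2a, Dppa2 and Dppa4. Gene by gene, 11 of the 12 tested genes of the later list were lower in CX45 than in 8C (median log2 fold change -1.08). All 14 tested maternal transcripts were higher in CX45 than in 8C (median 1.52). Of all 11873 genes tested, 7649 were higher and 3877 lower in CX45 than in 8C (median 0.31). Against 2C, the median of the later list was 0.71 in CX45 and 2.77 in 8C. The 10 blood and immune markers summed to between 13.3 and 369 FPKM, most of it Hba-a1, an alpha globin gene, at 286 and 347 FPKM in CX45, 23.6 and 71.2 in CX22, 10.3 and 28.8 in 8C and 106 and 104 in 2C. Hbb-bt, a beta globin gene, was listed at 0 in 7 of the 8 libraries. The 12 cumulus and granulosa cell markers summed to between 9.45 and 25.2 FPKM, with Amh, Fshr, Inha and Ptx3 at 0 in every library. Amhr2 of that list was at 25.1 and 9.83 FPKM in CX45, 5.72 and 3.31 in CX22, 10.4 and 19.3 in 8C and 3.29 and 3.16 in 2C. Star, at 3.39 and 3.46 FPKM in 2C, and Adamts1 fell in 8C over 2C by limma (log2 fold change -1.85 and -1.64). Star also fell in CX22 over 2C (-2.147) and CX45 over 2C (-2.117), and Adamts1 in CX45 over 2C (-1.311). Lyz2, of the blood and immune list, was at 9.613 and 7.452 FPKM in CX45 and 10.15 and 11.8 in CX22. It was at 0 in both 8C libraries and at 0 and 1.915 FPKM in 2C. Lyz2 rose in CX45 over 2C (2.275) and CX22 over 8C (3.579). The 10 sperm transcripts summed to between 2.44 and 57 FPKM over the 8 libraries. The part of such cells in the results was not tested. The steps between low values implied between 9.75 and 20.3 M fragments per library, at which 3 fragments on a transcript of 2 kb come to between 0.074 and 0.154 FPKM. The 2C libraries differed from each other by about sampling noise (median chi-square 1.21 times that of chance; the ratio was 47.6 for CX45, 126 for CX22 and 30.5 for 8C). They were counted as 1 sample, so comparisons with 2C take their spread from the other groups. The CX22 libraries agreed least: across the 54 splicing genes tested their correlation was 0.837, against 0.968 in CX45, 0.986 in 8C and 0.999 in 2C. Nothing in the labels says whether replicates came from separate pools of embryos, so all p-values refer to the spread among these libraries alone, and it may be technical.

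**Figure D1:**
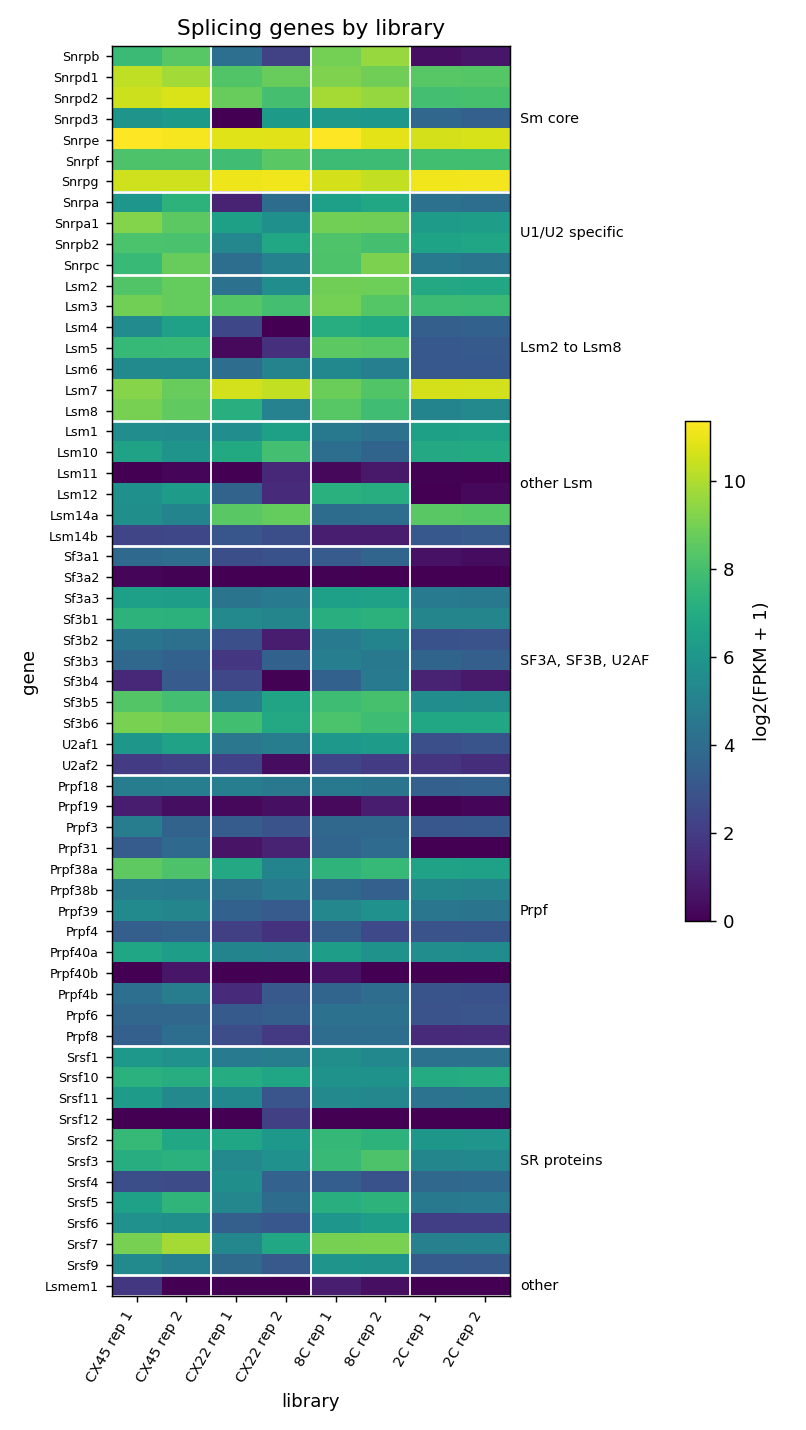
Level of each of the 60 splicing genes in each library, as log2(FPKM + 1), with genes in rows by role group and libraries in columns. CX45 and 8C share most of their colours, as do CX22 and 2C, and Lsm7, Snrpe and Snrpg are bright in all 8 columns.

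Of the 60 genes, 54 reached 1 FPKM in at least 2 libraries and were tested. The 6 that did not were Lsm11, Lsmem1, Prpf19, Prpf40b, Sf3a2 and Srsf12, none of them above 3.4 FPKM in any library. Among these, Prpf19 encodes the ubiquitin ligase of the complex that activates the spliceosome, and Sf3a2 a subunit of SF3A. Prpf19 was listed at 0.869 FPKM at most and Sf3a2 at 0.108 FPKM at most. The table holds no read counts and an estimate can fail, so a low value need not mean that the transcript was missing. Some tested genes passed through other groups only: Snrpb, Lsm12, Prpf31 and Sf3a1 were under 1 FPKM in both 2C libraries, and Lsm14b in both 8C libraries.

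Between the 8C and 2C embryos, genes for snRNP proteins, the branch point machinery and SR proteins were mostly higher in 8C, while Lsm genes with roles outside the spliceosome were mostly lower. By limma, 20 of the 54 tested genes rose in 8C, 7 fell and 27 were not called. Across all 11873 genes tested 16.3% rose, 20.7% fell and 37.1% were called. Calls needed a log2 fold change of 1 or more in size and a p under 0.05 after Benjamini-Hochberg adjustment across every gene tested. The median log2 fold change was 1.49 over the splicing genes, against -0.04 over all genes tested. The summed level of the 60 genes was 12810 and 11690 FPKM in 8C, against 8242 and 8312 FPKM in 2C. As a share of the summed FPKM of a library, that was 1.85% and 1.75% in 8C and 1.48% and 1.75% in 2C, which overlap.

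**Figure D2:**
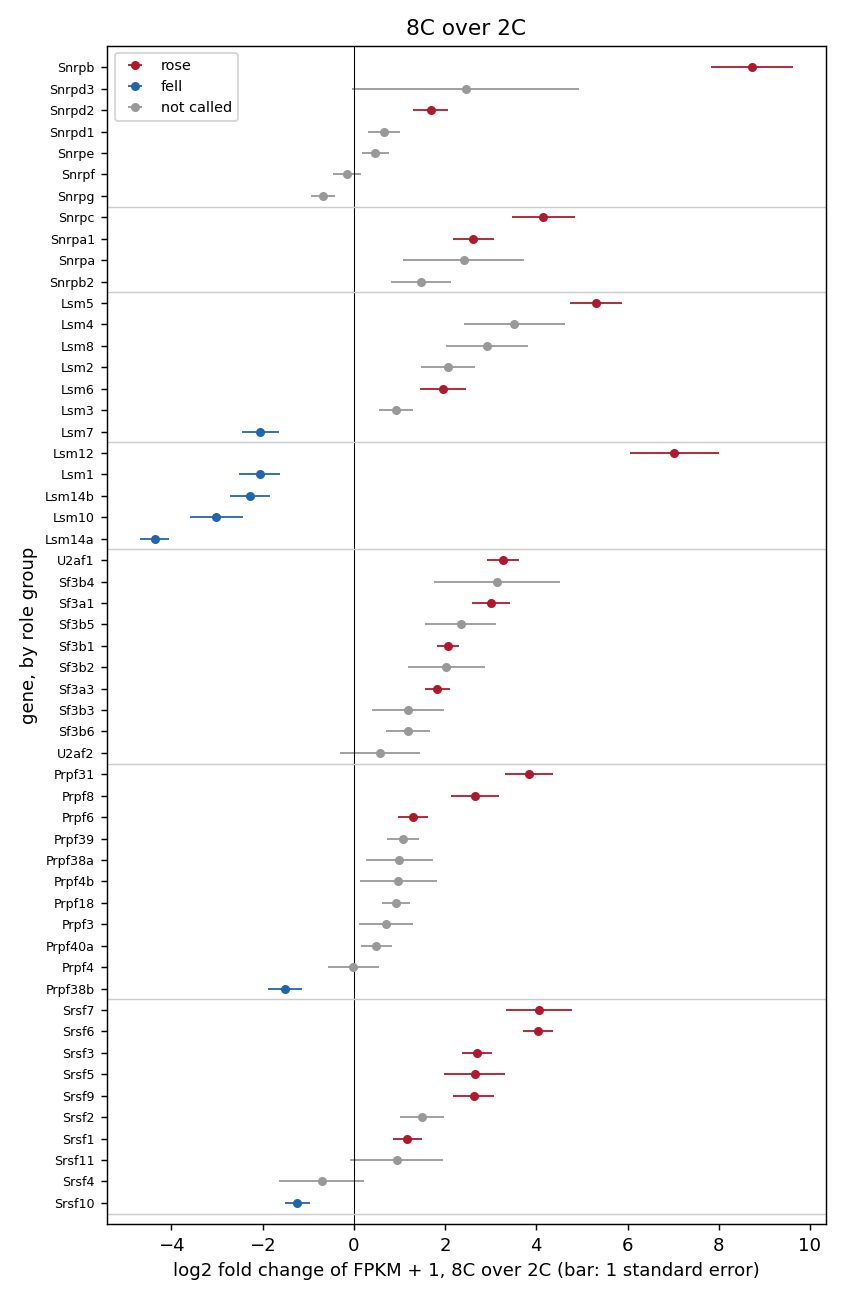
Log2 fold change of FPKM + 1, 8C over 2C, for the 54 tested genes by role group (points, with bars of 1 standard error). Snrpb, Lsm12 and Lsm5 lie farthest to the right, and Lsm14a and Lsm10 farthest to the left.

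The 7 Sm proteins form the ring around the snRNA in fixed proportion, yet their transcripts were far from equal in 2C. Snrpb (chromosome 2, 129997372 to 130005100 in mm9, counted from 1), which encodes SmB, stood at 504 and 793 FPKM in 8C against 0.371 and 0.625 FPKM in 2C. The 2 groups did not overlap, and the log2 fold change of 8.72 ± 0.90 (SE; limma adjusted p = 0.00415) was the highest of the splicing genes. The close paralog Snrpn, left out by the symbol rule, was listed at 193 and 198 FPKM in 8C and at 0 in both 2C libraries, so the split of fragments between the pair is uncertain. Snrpd2 rose too, to 909 and 761 FPKM in 8C against 250 and 267 FPKM in 2C (log2 fold change 1.68, limma adjusted p = 0.0287).

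The other Sm genes were not called. Snrpe, at 2652 and 1928 FPKM in 8C against 1587 and 1669 FPKM in 2C, and Snrpg, at 1578 and 1270 FPKM in 8C against 2234 and 2281 FPKM in 2C, were among the most abundant of the splicing transcripts in both groups. Snrpf was at 219 and 220 FPKM in 8C and 243 and 244 FPKM in 2C. Snrpd3 was at 67.7 and 65.2 FPKM in 8C against 12.4 and 10.3 FPKM in 2C, which do not overlap. Its standard error was the largest of the list at 2.49 on the log2 scale, because 1 of the CX22 libraries listed it at 0 and the other at 71.9 FPKM. Within a library, the most abundant Sm transcript exceeded the least abundant 39.2-fold and 29.6-fold in 8C, against 6020-fold and 3650-fold in 2C, where Snrpb was the lowest. Genes of this class have processed pseudogenes, so exact levels are uncertain.

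**Figure D3:**
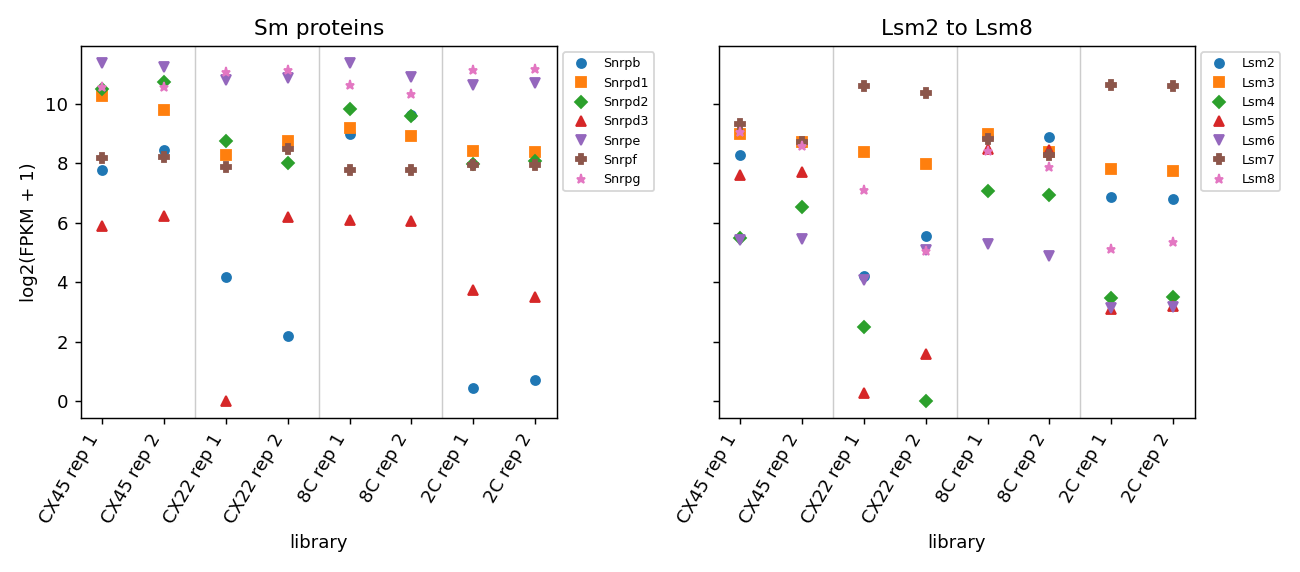
Level of the 7 Sm genes (left) and of Lsm2 to Lsm8 (right) in each library, as log2(FPKM + 1). In the 2C and CX22 libraries each ring spreads over a wider range than in the 8C and CX45 libraries.

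The 4 tested genes for proteins that mark a single snRNP were all higher in 8C, as were 5726 of all 11873 genes tested. Snrpc, whose protein helps U1 to hold the 5′ splice site, rose to 288 and 552 FPKM in 8C against 23.2 and 19.9 FPKM in 2C (log2 fold change 4.15, limma adjusted p = 0.0129). Snrpa1, which encodes the U2 protein A′, rose to 495 and 475 FPKM in 8C against 77.2 and 78.5 FPKM in 2C (2.62, adjusted p = 0.0145). Neither gene overlapped between the groups. Snrpa of U1, at 85.3 and 109 FPKM in 8C against 18.5 and 16.1 FPKM in 2C, and Snrpb2 of U2, at 299 and 256 FPKM in 8C against 97.1 and 101 FPKM in 2C, were not called (limma adjusted p = 0.21 and 0.145).

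The ring of Lsm2 to Lsm8 holds the 3′ end of U6, and Lsm1 takes the place of Lsm8 in a cytoplasmic ring that promotes mRNA decapping. Lsm5 (chromosome 6, 56651057 to 56654693 in mm9) rose to 360 and 346 FPKM in 8C against 7.64 and 8.23 FPKM in 2C (log2 fold change 5.31 ± 0.57 SE, limma adjusted p = 0.00465). Lsm6 rose as well (1.95, adjusted p = 0.0399). Lsm7 went the other way and fell to 454 and 311 FPKM in 8C, against 1581 and 1530 FPKM in 2C (-2.05, adjusted p = 0.0192). Lsm4, at 134 and 120 FPKM in 8C against 9.95 and 10.4 FPKM in 2C, and Lsm3, at 509 and 332 FPKM in 8C against 220.1 and 213 FPKM in 2C, were not called, nor were Lsm2 and Lsm8. The least and most abundant transcripts of this ring lay 13.3-fold and 16.2-fold apart in 8C, against 207-fold and 194-fold in 2C, where Lsm7 was the most abundant.

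Of the 5 tested Lsm genes outside the U6 ring, 4 fell in 8C and 1 rose (80% and 20%, against 20.7% and 16.3% of all genes tested). Lsm14a (chromosome 7, 35129163 to 35174724 in mm9) encodes a cytoplasmic protein of mRNA storage and repression bodies. It fell to 15.2 and 16 FPKM in 8C, against 351 and 334 FPKM in 2C (log2 fold change -4.37 ± 0.32 SE, limma adjusted p = 0.00227). Its paralog Lsm14b, known from mouse oocytes, fell to 0.928 and 0.875 FPKM in 8C against 7.88 and 8.51 FPKM in 2C. Lsm10, a ring protein of the U7 snRNP that trims the 3′ ends of histone mRNA, fell to 16.3 and 11.5 FPKM in 8C against 115 and 121 FPKM in 2C. Lsm1 fell to 23.1 and 18.2 FPKM in 8C against 87.7 and 90.1 FPKM in 2C. Log2 fold changes were -2.27 for Lsm14b, -3.01 for Lsm10 and -2.07 for Lsm1. Lsm12, an Lsm-domain protein that belongs to none of these rings, rose to 148 and 136 FPKM in 8C, while the 2C libraries gave 0 and 0.191 FPKM (7.03, adjusted p = 0.00824). Fitted changes against values near 0 depend on the pseudocount. That also holds for Snrpb, Sf3a1, Prpf31 and Isy1 against 2C and for Lsm5 against CX22.

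All 10 tested genes of SF3A, SF3B and U2AF were higher in 8C, as were 5726 of all 11873 genes tested. Of the 10, 4 rose by limma (40%, against 16.3% of all genes tested). U2af1 (chromosome 17, 31784026 to 31795709 in mm9), whose protein reads the AG at the 3′ splice site, rose to 66.3 and 75.3 FPKM in 8C against 5.94 and 6.86 FPKM in 2C (log2 fold change 3.27 ± 0.34 SE, adjusted p = 0.00437). Its partner U2af2, which binds the polypyrimidine tract, was not called, at 4.14 and 2.93 FPKM in 8C against 2.24 and 1.81 FPKM in 2C. Sf3b1, the largest SF3B subunit, rose to 142 and 159 FPKM in 8C against 34.9 and 35.4 FPKM in 2C (2.06 ± 0.23 SE, adjusted p = 0.0051). Sf3a1 rose to 8.7 and 11.9 FPKM in 8C against 0.474 and 0.317 FPKM in 2C, and Sf3a3 rose by 1.83. Sf3b4, at 10.5 and 24.1 FPKM in 8C against 1.15 and 0.715 FPKM in 2C, and Sf3b6, whose protein lies at the branch point, at 283 and 227 FPKM in 8C against 110 and 112 FPKM in 2C, were not called.

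Among 11 tested Prpf genes 3 rose and 1 fell. That is 36.4% called, close to the 37.1% of all genes tested. Prpf31, which joins U4/U6 to U5, rose to 12.3 and 14.9 FPKM in 8C, while 2C gave 0 and 0.0248 FPKM (log2 fold change 3.84, limma adjusted p = 0.00825). Prpf8, the scaffold of the catalytic centre, rose to 15.6 and 16.1 FPKM in 8C against 1.59 and 1.76 FPKM in 2C (2.65, adjusted p = 0.0204), and Prpf6 rose by 1.30. Prpf38b fell to 13.2 and 10.2 FPKM in 8C against 36.5 and 33.2 FPKM in 2C (-1.51, adjusted p = 0.0343). Prpf4 of U4/U6, at 9.25 and 4.67 FPKM in 8C and 6.56 and 6.81 FPKM in 2C, overlapped between the groups.

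SR proteins had 6 of 10 tested genes risen in 8C and 1 fallen (60% and 10%, against 16.3% and 20.7% of all genes tested). Srsf7 (chromosome 17, 80599420 to 80606645 in mm9) rose to 520 and 541 FPKM in 8C against 30.3 and 31.3 FPKM in 2C (log2 fold change 4.06, limma adjusted p = 0.0154). Srsf6 rose to 61.7 and 80.04 FPKM in 8C against 3.33 and 3.38 FPKM in 2C (4.03 ± 0.33 SE, adjusted p = 0.00276), and Srsf3 to 211 and 296 FPKM in 8C against 36.8 and 38.4 FPKM in 2C (2.70, adjusted p = 0.0063). Srsf1, Srsf5 and Srsf9 rose by 1.18, 2.65 and 2.63 on the log2 scale. Srsf10, an SR protein known to repress splicing when it loses its phosphates, fell to 54.8 and 54.3 FPKM in 8C against 128 and 133 FPKM in 2C (-1.24, adjusted p = 0.0255). Srsf4, at 9.64 and 6.32 FPKM in 8C against 13.2 and 13.6 FPKM in 2C, was not called.

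Which of these calls stood depended on the libraries in the fit. The CX45 and CX22 libraries enter this comparison only through the shared estimate of the spread, yet leaving 1 out also moved the count. The median log2 fold change of the splicing genes was 1.385 without 8C replicate 1 and 1.587 without 8C replicate 2, against 1.486 with both. Without 8C replicate 1 the count was 7, and without 8C replicate 2 it was 7, the same genes each time: Lsm14a, Lsm5, Sf3b1, Snrpb, Srsf3, Srsf6 and U2af1.

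SR protein genes are known to control their own output by splicing in exons that leave the transcript without a full reading frame, and RefSeq lists such transcripts with NR (non-coding) accessions. The table gave FPKM per RefSeq transcript, and 5 of the splicing genes had both coding and NR entries. For Srsf9, the NR entry held 0% of the gene's FPKM in both 8C libraries against 100% in both 2C libraries, so that the listed 2C level of 8.31 and 8.14 FPKM was non-coding throughout. For Srsf7 the NR share was 10.1% and 10.2% in 8C against 64% and 62% in 2C. For Srsf3 it was 0% in both 8C libraries against 30.8% and 28.5% in 2C. Each of these shares was lower in both 8C libraries than in both 2C libraries.

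The CX libraries followed no single pattern. The Srsf7 NR share was 11.9% and 13.3% in CX45 and 68.7% and 29.7% in CX22. For Srsf9 it was 10.3% and 0% in CX45 and 0% and 100% in CX22, where the 2 libraries were opposites. For Srsf3 it was 0% and 10.1% in CX45 and 0% and 8.87% in CX22, below both 2C libraries in each group. Snrpa1 had an NR share of 10.6% and 0% in CX45, 22.2% and 0% in CX22, 0% in both 8C libraries and 12% and 12.2% in 2C, and the NR entry of Prpf3 was at 0 in every library. Across 345 genes with both kinds of entry and at least 1 FPKM in every library, the mean NR share was 12.6% and 14% in 8C against 26.5% and 25.9% in 2C, with a median of 0% in each library. The lower share in 8C was thus also present in other genes. Cufflinks estimates how fragments divide among transcripts of one locus, and these shares are given as a description with no test.

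**Figure D4:**
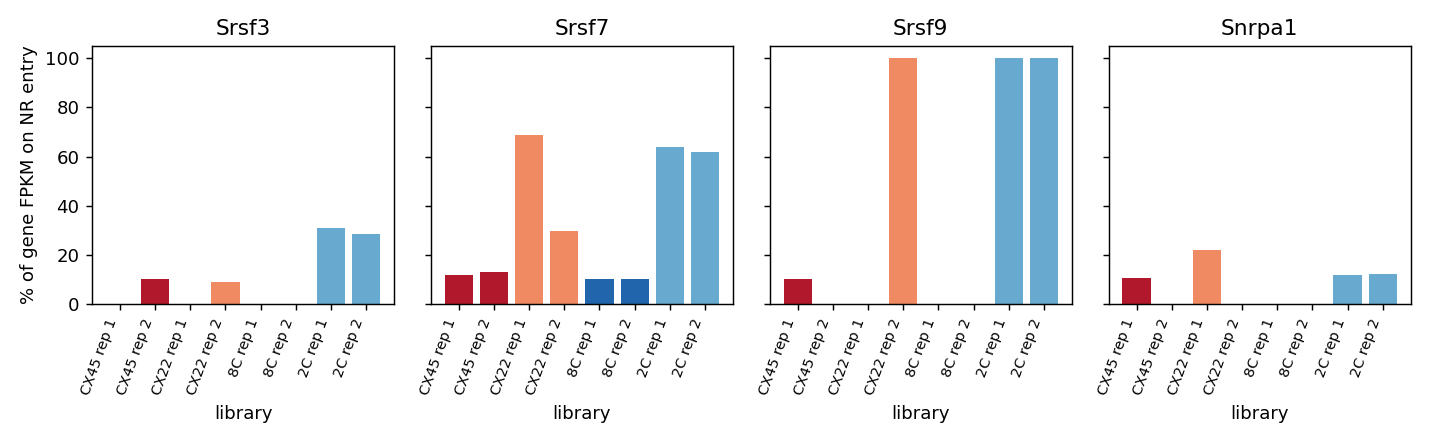
Share of the gene's FPKM on its NR (non-coding) RefSeq entry in each library, in percent, for Srsf3, Srsf7, Srsf9 and Snrpa1. Bars stand for libraries coloured by group, and a missing bar is 0%. The bars for Srsf3, Srsf7 and Srsf9 are tall in 2C and low or absent in 8C.

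The leading transcript also differed between stages for some genes. Among 22 tested splicing genes with several entries, 6 had a different leading entry in 8C than in 2C (27.3%, against 31.2% of 4400 such genes in the table). They were Prpf38b, Sf3b2, Srsf7, Srsf9, Srsf10 and Srsf11. For Prpf38b the leading 8C entry held 92.9% of the 8C level, while another entry held 100% of the 2C level. For Sf3b2 and Srsf11 the 2C level was split evenly between 2 entries, so no entry truly led there.

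Promoter sequence is shown for the 3 risen and 2 fallen genes with the largest changes among those with an entry in the RefSeq promoter table, to let the genes that moved in opposite directions be read side by side. Each line gives the 250 bases before the annotated start, 5′ to 3′ on the gene's strand, in build GRCm38.p6, which is not the build of the expression table. Capitals mark matches, on either strand, to short motifs. The motif of ETS factors was searched as CCGGAAG, that of SP and KLF factors as GGGCGG, the box named for its letters as CCAAT, the core of the TATA box as TATAAA and the E-box as CACGTG. The motif of YY1 was searched as AAGATGG, that of NRF1 as GCATGCG and that of the cAMP response element (CRE) as TGACGTC. Matches can overlap, as the pair of NRF1 matches in Srsf7 does.
Lsm5 (chr6:56704700-56704949, minus strand): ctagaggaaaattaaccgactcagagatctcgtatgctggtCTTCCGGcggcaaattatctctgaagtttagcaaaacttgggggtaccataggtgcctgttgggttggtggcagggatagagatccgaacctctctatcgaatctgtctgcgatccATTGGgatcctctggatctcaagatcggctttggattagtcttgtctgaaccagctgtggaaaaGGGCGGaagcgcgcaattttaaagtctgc
Snrpc (chr17:27839837-27840086, plus strand): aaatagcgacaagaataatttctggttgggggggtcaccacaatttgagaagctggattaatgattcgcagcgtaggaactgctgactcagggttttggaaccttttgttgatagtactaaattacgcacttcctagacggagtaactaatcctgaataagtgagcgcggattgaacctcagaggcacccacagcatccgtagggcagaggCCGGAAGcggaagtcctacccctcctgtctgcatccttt
Srsf7 (chr17:80207306-80207555, minus strand): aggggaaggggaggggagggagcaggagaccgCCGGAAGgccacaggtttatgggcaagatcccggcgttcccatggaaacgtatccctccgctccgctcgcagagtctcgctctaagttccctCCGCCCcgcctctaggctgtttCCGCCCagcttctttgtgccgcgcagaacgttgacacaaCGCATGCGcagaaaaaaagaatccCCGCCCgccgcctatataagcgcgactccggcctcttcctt
Lsm14a (chr7:34389706-34389955, minus strand): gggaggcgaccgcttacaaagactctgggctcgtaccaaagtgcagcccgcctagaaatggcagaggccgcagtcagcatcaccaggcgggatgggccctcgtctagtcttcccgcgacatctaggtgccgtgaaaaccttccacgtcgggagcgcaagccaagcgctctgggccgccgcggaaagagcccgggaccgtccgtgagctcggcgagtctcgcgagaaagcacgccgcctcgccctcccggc
Lsm10 (chr4:126096403-126096652, plus strand): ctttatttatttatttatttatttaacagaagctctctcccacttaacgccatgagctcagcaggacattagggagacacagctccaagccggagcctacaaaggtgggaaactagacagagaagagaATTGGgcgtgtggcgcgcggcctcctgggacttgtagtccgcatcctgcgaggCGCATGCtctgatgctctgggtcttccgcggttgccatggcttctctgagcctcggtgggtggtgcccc

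Snrpc had an ETS match that began 39 bases before the start, Lsm5 one at 209 and Srsf7 one at 218, while Lsm10 and Lsm14a had none. Of 60 splicing genes 50 had a promoter in the table, and 16 of these held the ETS motif (32%), against 14.1% of 9528 tested genes with a promoter and 7.05% of all 27025 promoters. By direction in 8C over 2C, 6 of 18 risen genes held it (33.3%, close to the 32% of all splicing promoters) and 0 of 6 fallen genes. The CCAAT box was in 5 of 18 risen and 4 of 6 fallen genes, and the SP and KLF motif in 12 of 18 and 4 of 6. These splits by direction rest on few genes and were not tested. The SP and KLF motif was in 64% of the splicing promoters and 55.8% of the tested ones, the CCAAT box in 40% and 38.2%, the TATA box in 8% and 7.54%, the E-box in 6% and 8.57%, YY1 in 0% and 4.29%, NRF1 in 8% and 5.6% and CRE in 6% and 4.88%. A match is a run of letters and not a bound site, and a missing match says only that those letters are not in this window.

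Most splicing genes, 47 of 54, were higher in CX45 embryos than in CX22 embryos, as were 7130 of all 11873 genes tested. By limma 29 of the 54 tested genes rose in CX45, 2 fell and 23 were not called, against 23% risen, 13.5% fallen and 36.4% called of all genes tested. The median log2 fold change was 1.61 over the splicing genes and 0.47 over all genes tested. After quantile normalization these medians were 1.26 and 0.06. Snrpb rose to 217 and 345 FPKM in CX45 against 16.9 and 3.54 FPKM in CX22 (4.93, adjusted p = 0.0103), and Lsm5 to 196 and 205 FPKM in CX45 against 0.204 and 1.98 FPKM in CX22 (6.73, adjusted p = 0.00361). All 4 genes of the U1 and U2 proteins rose, among them Snrpc, at 208 and 422 FPKM in CX45 against 16 and 30.9 FPKM in CX22. Of these 4, Snrpa kept its call in 9 of 17 alternatives and Snrpb2 in 10. Srsf6 rose to 52.5 and 49.6 FPKM in CX45 against 9.8 and 7.57 FPKM in CX22 (2.43), and Sf3b1 to 164 and 155 FPKM in CX45 against 39.5 and 35.7 FPKM in CX22 (2.06). Lsm14a fell to 50.1 and 34.3 FPKM in CX45 against 352 and 416 FPKM in CX22 (-3.17), and Lsm7 fell by 1.47. Many of the 31 calls were lost when 1 CX45 library or 1 8C library was left out. The 8C libraries enter this comparison only through the shared estimate of the spread. The median log2 fold change of the splicing genes stayed at 1.61 with 8C replicate 1 or 2 left out. It was 1.70 with CX45 replicate 1 or 2 left out.

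The comparisons of CX45 with CX22 and of 8C with 2C share no library, although they share 1 estimate of the spread. They had 18 called splicing genes in common, all in the same direction, which is 58.1% of the CX45 over CX22 calls and 66.7% of the 8C over 2C calls. Over all genes tested those shares were 63.5% and 62.5%, so the overlap of the splicing genes was close to that of genes at large. The genes called in 8C over 2C and not in CX45 over CX22 numbered 9: Lsm1, Lsm6, Lsm10, Lsm14b, Prpf6, Prpf8, Prpf38b, Sf3a1 and Srsf10. When the difference between the 2 changes was itself tested, limma called 0 of the 54 genes, against 3.6% called of all genes tested (3.2% with a higher and 0.404% with a lower change). With an unadjusted p below 0.05, 5 splicing genes had a higher and 5 a lower change (9.26% each), against 16% and 4.35% of all genes tested. Treating the 2C libraries as separate gave 7 calls: Lsm14b, Prpf38b and Srsf10 with a higher change and Sf3a1, Snrpb, Srsf6 and U2af1 with a lower change in CX45 over CX22. The share of all genes called under that setting is not given here, so this count has no background.

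**Figure D5:**
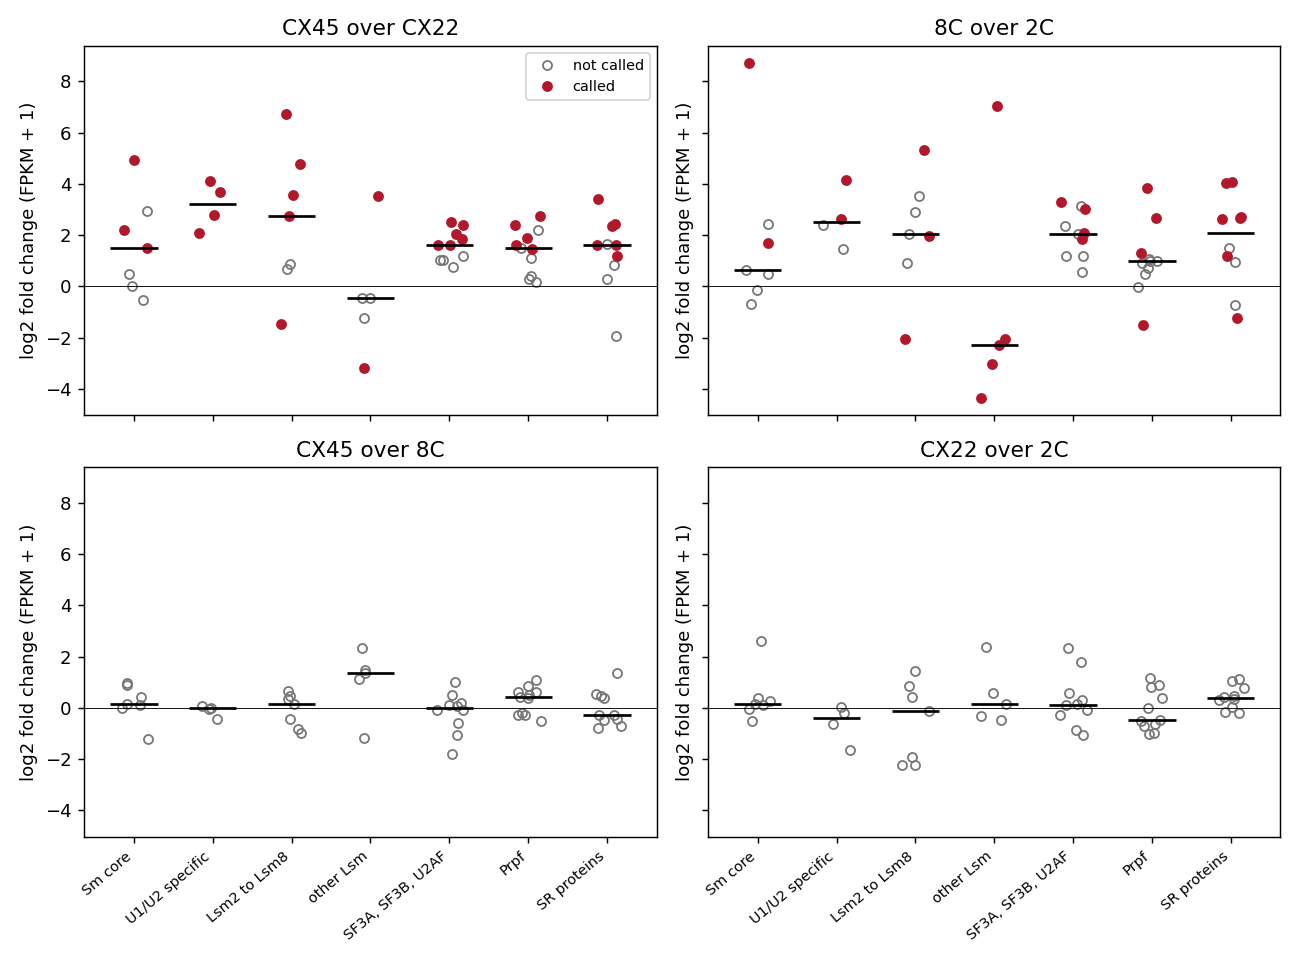
Log2 fold change of FPKM + 1 for the 54 tested genes by role group in 4 comparisons. Filled points were called by limma, open points were not, and horizontal lines are medians of a role group; in CX45 over 8C and CX22 over 2C no point is filled.

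CX45 embryos were set against 8C embryos, and limma called 0 of the 54 splicing genes, against 0.665% of all genes tested (0.463% risen and 0.202% fallen). At an unadjusted p under 0.05, 8 genes were higher and 1 was lower in CX45 (14.8% and 1.85%), close to the 15% and 4.28% of all genes tested. Of the 5 tested Lsm genes outside the U6 ring, 4 were among the 8, and the fifth, Lsm12, was at 51.3 and 76.5 FPKM in CX45 against 148 and 136 FPKM in 8C (log2 fold change -1.17, adjusted p = 0.523). Lsm10 was at 92.3 and 58 FPKM in CX45 against 16.3 and 11.5 FPKM in 8C (log2 fold change 2.33, adjusted p = 0.101), and Lsm14a at 50.1 and 34.3 FPKM in CX45 against 15.2 and 16 FPKM in 8C (1.35, adjusted p = 0.0934). Lsm14b was at 4.15 and 4.45 FPKM in CX45 against 0.928 and 0.875 FPKM in 8C (1.48, adjusted p = 0.132), and Srsf10 at 153 and 134 FPKM in CX45 against 54.8 and 54.3 FPKM in 8C (1.38, adjusted p = 0.0751). Lsm10, Lsm14a, Lsm14b and Srsf10 were the 4 calls when the 2C libraries entered as separate samples, a setting for which the share of all genes called is not given. Snrpb was at 217 and 345 FPKM in CX45 against 504 and 793 FPKM in 8C, Lsm5 at 196 and 205 FPKM in CX45 against 360 and 346 FPKM in 8C, and Snrpd1 at 1232 and 882 FPKM in CX45 against 578 and 482 FPKM in 8C. The median over the splicing genes was 0.11, against 0.31 over all genes tested. Median ratio scaling turned the median of the splicing genes to -0.48 and that of all genes tested to -0.002. After quantile normalization these medians were 0.06 and 0, so the place of the splicing genes relative to all genes depended on the scaling.

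CX22 embryos were set against 2C embryos, and again limma called 0 of the 54 genes, against 3.89% of all genes tested (0.598% risen and 3.29% fallen). At an unadjusted p under 0.05, 6 were higher and 3 lower in CX22 (11.1% and 5.56%), against 5.1% and 11.1% of all genes tested. The median was 0.11 over the splicing genes and -0.07 over all genes tested. Sf3a1 was at 5.61 and 6.39 FPKM in CX22 against 0.474 and 0.317 FPKM in 2C (log2 fold change 2.33, limma adjusted p = 0.0661), and U2af1 at 21.7 and 27.7 FPKM in CX22 against 5.94 and 6.86 FPKM in 2C (1.79, adjusted p = 0.0767). Lsm5 was at 0.204 and 1.98 FPKM in CX22 against 7.64 and 8.23 FPKM in 2C (-2.24, adjusted p = 0.145). Lsm14a, at 352 and 416 FPKM in CX22 and 351 and 334 FPKM in 2C, and Sf3b1, at 39.5 and 35.7 FPKM in CX22 and 34.9 and 35.4 FPKM in 2C, lay close together. Treating the 2C libraries as separate gave 7 calls (Lsm2, Lsm5, Prpf18, Sf3a1, Snrpb, Srsf6 and U2af1), again without the share of all genes called. Leaving out CX22 replicate 1 gave 2 calls (Lsm5 and Snrpd3), and leaving out replicate 2 gave 5 (Lsm2, Lsm5, Lsm12, Snrpb2 and Snrpd3). Snrpd3 was higher in CX22 without replicate 1 (2.56) and lower without replicate 2 (-3.63), as its 0 and 71.9 FPKM in those libraries imply.

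The remaining pairs share libraries with those above. In CX45 over 2C, 22 splicing genes rose and 2 fell (Lsm14a and Lsm7), against 16.2% risen and 13.6% fallen of all genes tested (29.8% called). In CX22 over 8C, 6 rose (Lsm1, Lsm7, Lsm10, Lsm14a, Lsm14b and Srsf10) and 23 fell, against 19.9% risen and 21.4% fallen (41.3% called). Genes named in brackets after a count were chosen after their values were seen.

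Other genes of the pathway were taken from 3 further lists. Of 79 tested further spliceosome components, 19 rose and 0 fell in 8C over 2C (by unadjusted p under 0.05, 30 higher and 3 lower), with a median log2 fold change of 1.09. Over all genes tested, 16.3% rose and 20.7% fell there. At an unadjusted p under 0.05, 22% of all genes tested were higher and 27.1% lower. Ddx39b, a helicase of early spliceosome assembly, rose to 37.8 and 49.6 FPKM in 8C against 0.706 and 0.472 FPKM in 2C (adjusted p = 0.00254). Snu13, which binds U4 RNA, rose to 3626 and 3310 FPKM in 8C against 431 and 443 FPKM in 2C (2.98). Of 20 genes for snRNP assembly and import, 9 rose and 0 fell (by unadjusted p under 0.05, 10 higher and 0 lower), with a median of 1.96. Gemin2, of the SMN complex that loads the Sm ring, rose to 169 and 173 FPKM in 8C against 1.15 and 1.22 FPKM in 2C (6.30), and Smn1 itself to 74.6 and 116 FPKM in 8C against 8.95 and 8.06 FPKM in 2C (3.31).

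Among splicing regulators and SR protein kinases, 13 of 54 tested genes rose and 7 fell in 8C over 2C (median 0.58). Of all genes tested, 16.3% rose and 20.7% fell. Ptbp2, a repressor of exon inclusion best known from neurons, fell to 1.62 and 1.51 FPKM in 8C against 109 and 109 FPKM in 2C (-5.42). The SR protein kinase gene Srpk2 fell to 8.91 and 5.24 FPKM in 8C against 143 and 138 FPKM in 2C (-4.17), and Nono rose to 104 and 123 FPKM in 8C against 6.27 and 6.53 FPKM in 2C (3.95). In CX45 over 8C limma called 0 genes of these 3 lists, against 0.665% of all genes tested. At an unadjusted p under 0.05, 9 of 79 spliceosome components, 8 of 54 regulators and 1 of 20 assembly factors were higher there. On the same lists 3, 3 and 0 were lower. Over all genes tested 15% were higher and 4.28% lower. In CX22 over 2C, 2 of the 79 spliceosome components rose, against 0.598% risen and 3.29% fallen of all genes tested. Isy1, of the complex around Prpf19, was at 17.2 and 19.3 FPKM in CX22 against 0.0514 and 0.0481 FPKM in 2C (4.20, adjusted p = 0.0111), and Srrm2 at 3.52 and 6.95 FPKM in CX22 and listed at 0 in both 2C libraries. The other lists had 0 calls there by limma, with 4 regulators and 1 assembly factor higher and 1 and 3 lower at an unadjusted p under 0.05. At that threshold 5.1% of all genes tested were higher and 11.1% lower in CX22.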

How the data were processed

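Per the labels' protocols, total RNA was copied and amplified by Smart-seq and sequenced on a BGISEQ500 machine. Per the submitters' processing notes, HISAT2 (listed as 4.8.2) and Cufflinks 2.2.1 were used with build mm9. Their settings, the strand and the annotation release were not stated there. The authors deposited FPKM, listed for each RefSeq transcript at each locus.

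Of 41876 entries 41685 matched a symbol of the RefSeq annotation, and FPKM were summed per gene. Table starts were read as counted from 0. The filter kept genes that reached 1 FPKM in 2 libraries or more. Values were log2(FPKM + 1), a scale that understates the change of low genes. For 2C the mean of both libraries entered as 1 sample. All groups were fitted with limma 3.58.1 in R 4.3.3, with a trend on mean expression, two-sided, and adjusted over all genes tested. Depth was inferred from steps between low FPKM: 60.8% to 64.9% of values lay within 0.05 of a whole fragment. It covers counting error only.

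The members and lists were chosen with earlier results of these data known. Values per library were given for up to 2 genes with the highest and 2 with the lowest change of 8C over 2C in a role group, for genes called in CX22 over 2C, CX45 over 8C or the difference of changes, for genes listed at 0 in a whole group and at 10 FPKM elsewhere, and for Snrpb, Prpf8, Sf3b1, U2af1, U2af2 and Srsf3. From each other list, up to 3 genes with the smallest p in 8C over 2C were named, and calls in CX22 over 2C or CX45 over 8C where few. Other named genes were chosen after their values were seen. Alternatives covered the pseudocount, filters, scaling, separate 2C libraries, a replicate block, moderation, each library left out and, chosen after seeing the data, NM entries only. Shares of all genes called are given for the fit as reported and not for these alternatives, so counts under them may move as genes at large do.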

Additional observations from a re-analysis of the deposited data

Results flagged for a closer look

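Isy1, a spliceosome component outside the symbol rule, changed differently between the 2 pairs of groups that share no library. It was at 11.7 and 9.88 FPKM in CX45 against 17.2 and 19.3 FPKM in CX22, and at 5.5 and 4.93 FPKM in 8C against 0.0514 and 0.0481 FPKM in 2C. The change of CX45 over CX22 less that of 8C over 2C was -3.28 on the log2 scale (limma adjusted p = 0.0469), and the cause was not tested. Groups held 2 libraries each, so single libraries were not screened as outliers.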

How the results depend on the processing

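No gene called in a comparison as reported was called there in the other direction under an alternative, but Snrpd3, not called as reported, was called both ways in CX22 over 2C (2.56 without CX22 replicate 1, -3.63 without replicate 2) and in the difference of changes (-2.58 and 3.60). Of the 27 genes called in 8C over 2C, 7 kept their call under each of them. Counts of called splicing genes moved by more than 1.5 times as follows. Leaving out single libraries gave 7 to 36 in 8C over 2C, 0 to 5 in CX22 over 2C, 8 to 31 in CX45 over CX22, 7 to 31 in CX45 over 2C, 8 to 34 in CX22 over 8C and 0 to 3 in the difference of changes. The 8C and CX45 libraries set the low ends: without 8C replicate 1 and 2 the count was 15 and 15 in CX45 over CX22, 9 and 9 in CX45 over 2C and 12 and 8 in CX22 over 8C, and without CX45 replicate 1 and 2 it was 11 and 8 in CX45 over CX22 and 7 and 10 in CX45 over 2C. Leaving out a CX22 library gave the high end in 8C over 2C and CX45 over 2C. The cause was not tested. With 8 separate libraries CX22 over 2C had 7 calls, CX45 over 8C 4 and the difference of changes 7, where the 2C sample counted once gave 0. A pseudocount of 0.1 gave 1 call in CX22 over 2C (Sf3a1). Scaling moved the median of all genes tested: it was 0.31 in CX45 over 8C, 0.47 in CX45 over CX22 and 0.33 in CX45 over 2C as deposited, and 0, 0.06 and 0.11 after quantile normalization. Same-numbered libraries deviated together little or not at all (correlations -0.0009 to 0.105). With 2 libraries a group, and 2C libraries that differ by about sampling noise, this cannot settle whether the numbers pair the samples. With the replicate block and 8 separate libraries the counts were 38 in 8C over 2C, 5 in CX22 over 2C, 3 in CX45 over 8C and 2 in the difference of changes. With 9.75 to 20.3 M fragments a library, changes of genes near 0.1 FPKM rest on few fragments.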
